A study of Mus musculus with 9 samples.

Results

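The genes described here are the nuclear genes that encode the enzymes of mitochondrial oxidative phosphorylation in mice. They were chosen by symbol: the Nduf genes of complex I, the Sdh genes of complex II, the Uqcr genes of complex III, the Cox4 to Cox8 genes of complex IV and the Atp5 genes of complex V. There were 83 of them among 49671 genes in the files, 36 in complex I, 4 in complex II, 8 in complex III, 18 in complex IV and 17 in complex V. A filter on low counts kept 80 of the 83 for testing, among 31961 genes. The others, Cox6a2, Cox7b2 and the processed pseudogene Cox6c2, had 14, 29 and 42 counts over all 9 libraries and get no test. The symbol rule also takes Atp5s, known as coupling factor B, which is not a subunit of the enzyme.

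Complex I oxidises NADH and complex II oxidises succinate, and both hand electrons to ubiquinone. Complex III passes them on to cytochrome c and complex IV to oxygen, and complexes I, III and IV pump protons out of the matrix. Complex V, the ATP synthase, lets the protons back through a turning ring of c subunits and makes ATP in its F1 head. Most subunits are made from nuclear genes, and the mitochondrial genome adds a few core subunits to every complex but II. Melanocyte stem cells (McSC) replace the pigment cells of the hair and lie quiescent in the resting follicle.

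The cells were KIT+CD45-, obtained by flow cytometry out of dissociated dermis of wild-type C57BL/6 females, and their RNA was sequenced. KIT is a receptor of the melanocyte lineage and CD45, the product of Ptprc, is found on immune cells. There were 3 ages: melanoblasts, the pigment cell precursors of developing follicles, from pups at day 0.5 (n = 3 libraries), adult quiescent McSC from mice of 8 to 10 weeks in the resting stage of the hair cycle (n = 4), and aged quiescent McSC from mice of 24 months at that same stage (n = 2). All groups share the sort, the sex and the strain, and none carries a transgene. Each library pooled cells of several animals, and the p-values below therefore reflect variation among pools only. In-house matings of C57BL/6J gave the pups and adults, whereas the aged mice came from the NIA colony when 21 months old, and were kept until 24 months in the same facility, so age and colony cannot be told apart.

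Total counts ran from 12594770 to 33710117 per library, and mitochondrial rRNA took between 21.5% and 37.6% of them. Counts are given as CPM, counts scaled to a fixed library size with TMM factors, and 3 counts, the limit that a count of 0 allows, equal 0.117 to 0.187 CPM. Kit averaged 985 ± 453 CPM in adult McSC (SD, n = 4) and 2733 ± 433 CPM in melanoblasts (SD, n = 3), while Ptprc stayed between 0.678 and 7.47 CPM in every library. Sox10, a transcription factor of the lineage, averaged 225 ± 56.1 CPM in adult McSC and 594 ± 134 CPM in melanoblasts. The proliferation gene Mki67 averaged 82.6 ± 12.6 CPM in adult McSC and 2111 ± 351 CPM in melanoblasts. Melanoblast replicate 3 lay apart from the other melanoblasts on the first principal component, and adult replicate 2 lay nearest to the melanoblasts among the McSC libraries. In bulk samples, fewer cells of a type and less RNA per cell cannot be told apart.

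Upstream sequences of the members Sdhd, Cox6a1 and Atp5g3 are shown because these genes are among those with the smallest p in their complexes and carry letters that match known regulators of respiration genes. Each is the 250 bases before the RefSeq start site in GRCm38.p6, minus strand, 5′ to 3′, and capitals mark the motif. In the first sequence they mark an NRF1 motif (GCGCANGCG), in the second 3 NRF1 motifs of which a pair overlap, and in the third an ERR motif read on the other strand (TCAAGGTCA). The windows are chr9:50603850-50604099 for Sdhd, chr5:115348959-115349208 for Cox6a1 and chr2:73911327-73911576 for Atp5g3.
Sdhd: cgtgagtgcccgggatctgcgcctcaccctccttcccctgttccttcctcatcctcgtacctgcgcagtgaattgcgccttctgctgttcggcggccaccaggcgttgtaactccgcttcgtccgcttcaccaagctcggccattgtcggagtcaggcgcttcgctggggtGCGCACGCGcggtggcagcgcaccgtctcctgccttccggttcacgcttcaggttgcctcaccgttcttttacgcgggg
Cox6a1: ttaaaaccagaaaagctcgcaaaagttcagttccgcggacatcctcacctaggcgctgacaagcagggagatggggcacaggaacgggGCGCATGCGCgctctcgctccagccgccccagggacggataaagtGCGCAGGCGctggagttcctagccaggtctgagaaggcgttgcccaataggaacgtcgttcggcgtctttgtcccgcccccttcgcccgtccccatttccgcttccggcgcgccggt
Atp5g3: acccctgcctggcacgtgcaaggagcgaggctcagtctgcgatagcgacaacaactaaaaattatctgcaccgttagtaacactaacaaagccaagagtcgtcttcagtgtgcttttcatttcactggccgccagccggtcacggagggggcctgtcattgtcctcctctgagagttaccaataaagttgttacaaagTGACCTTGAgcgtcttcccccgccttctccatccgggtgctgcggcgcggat
The motif begins 79 bases before the start site in Sdhd and 52 bases before it in Atp5g3, and the 3 motifs of Cox6a1 begin 162, 161 and 117 bases before it.

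RefSeq windows of 250 bases before to 50 after the start were matched for 67 of the 83 genes. Motifs were searched on both strands. The NRF1 motif was in 20 of the 67, which is 29.9%, against 7.03% of 27025 genes with a window. The YY1 motif AAGATGGCG was in 7, or 10.4%, against 1.64% of all genes. The ERR motif was in 2, Sdhd and Atp5g3, or 2.99%, against 0.466%. The ETS motif CCGGAAGT, which GABP binds, was in 5, or 7.46%, against 4.31%. Any of the 4 motifs was in 13 of 32 windows of complex I, 2 of 3 of complex II, 3 of 5 of complex III, 2 of 12 of complex IV and 9 of 15 of complex V. The genes set beside the members are all genes with a window, not matched to them for expression or base composition. A match is a description of letters and not a bound site.

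Per length of exon, Atp5b was the most abundant member. It encodes the catalytic beta subunit of ATP synthase and averaged 305 CPM per kb over the 9 libraries. The most abundant members of complexes IV, II and III were Cox8a at 62.1 CPM per kb, Sdha at 32.3 and Uqcrh at 28.3. With age, the summed level of all 83 genes averaged 5934 ± 1649 CPM in melanoblasts (SD, n = 3), 2206 ± 322 CPM in adult McSC (SD, n = 4) and 1522 ± 186 CPM in aged McSC (SD, n = 2). Complex V gave 64.6%, 60.7% and 58.3% of that sum at these 3 ages, most of it from Atp5b and Atp5a1, the alpha subunit of the F1 head. Complex I gave 15.9%, 18.5% and 19.7%.

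In adult McSC, 64 of the 80 tested genes fell relative to melanoblasts, none rose and 16 were not called at an adjusted p of 0.05 (edgeR quasi-likelihood test, Benjamini-Hochberg over all genes tested). Over all tested genes 18.3% fell and 15.1% rose. The members' median log2 fold change was -1.20, against 0.39 for all tested genes, and members ran from -2.24 for Atp5mpl to 1.65 for Cox8c. Every adult library lay below every melanoblast library for 61 of the 80, against 19.8% of all tested genes. Falls took 27 of 36 tested genes in complex I, 4 of 4 in complex II, 7 of 8 in complex III, 10 of 15 in complex IV and 16 of 17 in complex V. Among the 74 subunits used in most tissues 64 fell, and among the 5 tested isoforms restricted to certain tissues none was called. Of these isoforms, Cox8b was at -2.07 ± 0.968 (SE; edgeR adjusted p = 0.0998), on 57 counts over all libraries.

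**Figure D1:**
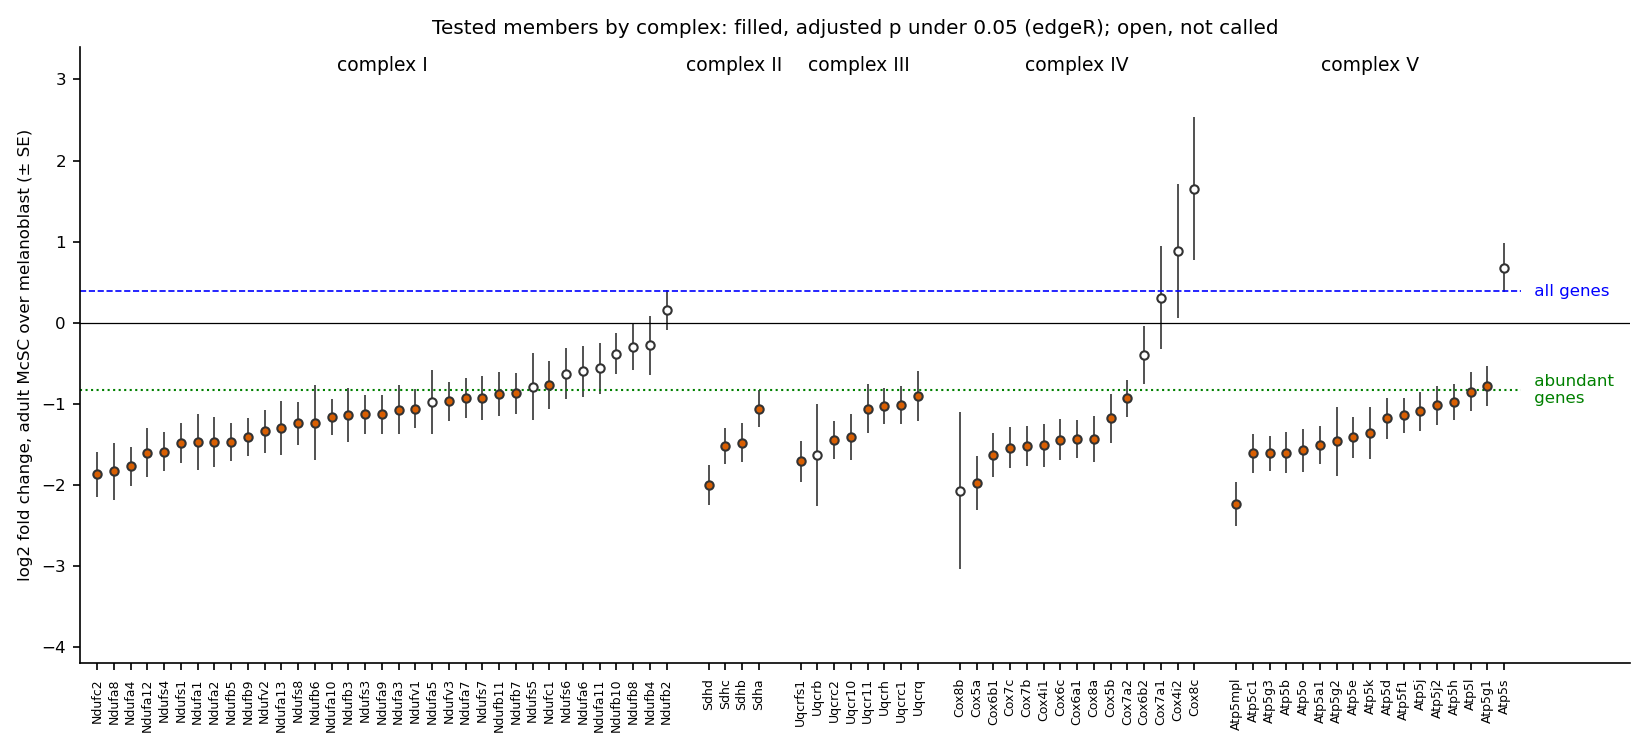
Log2 fold change (y axis, ± SE) of 79 of the 80 tested genes (x axis, by complex), adult McSC over melanoblast; filled points passed the test. Most points lie under 0 and under the all-gene median of 0.39 (dashed) and, less far, under the median of abundant genes at -0.83 (dotted).

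The size of this fall depends on how libraries are scaled. TMM factors were 1.085 to 1.21 in adult and 0.560 to 0.842 in melanoblast libraries. Under them, abundant genes as a class sat lower in adult McSC: among 4392 genes above a log2 CPM of 5 the median change was -0.83 and 64.9% fell, while all 18 members among them fell, with a median of -1.44. In the band of log2 CPM 2 to 5, 45 of 54 members and 33.5% of all genes fell. With factors taken from the abundant genes, 25 members fell and 2 rose, with a median of -0.32, while 5.36% of all tested genes fell and 34.5% rose. With library totals alone, 24 fell and 2 rose, again with a median of -0.32, while 4.65% of all tested genes fell and 34.5% rose. With abundant-gene factors the falls took 8 genes of complex I, 3 of complex II, 2 of complex III, 6 of complex IV and 6 of complex V. The 2 that rose under both were Ndufb2 and Atp5s, and all-gene medians moved to 1.20 and 1.17.

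Without any scaling factor, members took 0.21% to 0.275% of the counts of adult libraries and 0.341% to 0.404% of those of melanoblast libraries. These ranges do not overlap. In the aged libraries members took 0.25% and 0.191%, which overlap the adult range, although the TMM-scaled sum of each aged library was below every adult one. Against the summed counts of mitochondrially encoded mRNA in the same library, members came to 6.70% to 11.8% in adult McSC and 8.38% to 10.7% in melanoblasts, which overlap.

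**Figure D2:**
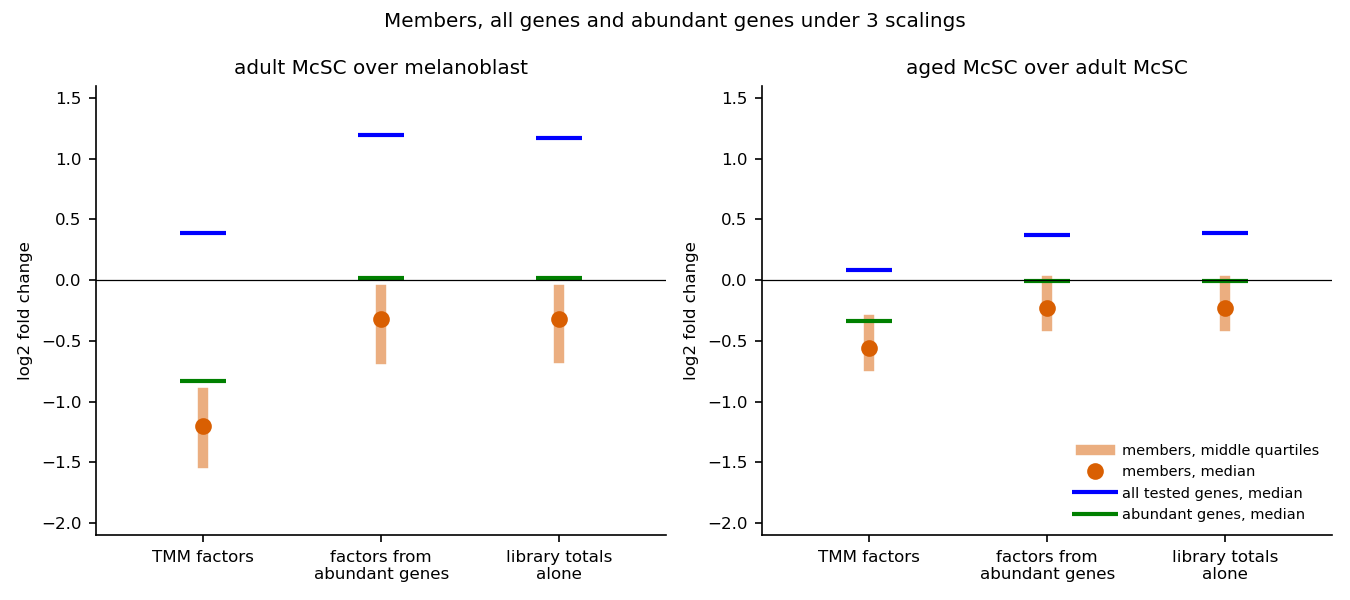
Median log2 fold change (y axis) of the tested members (points; bars, middle quartiles), all tested genes and abundant genes under 3 scalings (x axis), adult over melanoblast at left and aged over adult at right. At left, the members' median moves from -1.20 with TMM factors to -0.32 with the others, below both gene medians each time.

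Complex I joins a core that carries electrons from NADH to ubiquinone with many supernumerary subunits. All 7 tested core genes fell in adult McSC, with a median change of -1.24, and 20 of 29 supernumerary subunits did. Ndufa4 is classed with complex I by its symbol, although its protein is also known as a subunit of complex IV. It had 11.3, 16.3, 12.6 and 16.7 CPM in adult McSC and 50.9, 61.3 and 33.6 CPM in melanoblasts, a change of -1.77 ± 0.244 (SE; edgeR adjusted p = 4.95e-06). Every adult library was lower, and the call held with abundant-gene factors, at -0.91. The 9 uncalled genes of complex I were Ndufa5, Ndufa6, Ndufa11, Ndufb2, Ndufb4, Ndufb8, Ndufb10, Ndufs5 and Ndufs6, all supernumerary subunits.

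Complex II is the enzyme shared with the citric acid cycle and is encoded by nuclear genes alone. Sdha carries the flavin that oxidises succinate, Sdhb carries the iron-sulfur centres, and Sdhc and Sdhd anchor them in the membrane. Sdhd, whose upstream sequence is shown, had 13.7, 17.0, 15.8 and 15.4 CPM in adult McSC, against 75.7, 70.4 and 39.3 CPM in melanoblasts. Every adult library was lower, at -2.00 ± 0.243 (SE; edgeR adjusted p = 8.63e-07). Sdha had 71.7, 123, 106 and 102 CPM in adult McSC and 245, 225 and 158 CPM in melanoblasts. Its change was smaller, -1.06 ± 0.226 (SE; edgeR adjusted p = 0.000841), and with abundant-gene factors it was -0.21 and not called. Sdhc and Sdhb fell by 1.52 and 1.48 on the log2 scale. Within a library, which needs no scaling, Sdha counts were 525% to 723% of Sdhd counts in adult McSC and 320% to 402% in melanoblasts. These ranges do not overlap, so within the enzyme Sdhd was lower relative to Sdha in every adult library than in any melanoblast library.

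Complex III has the Rieske iron-sulfur protein Uqcrfs1 among its catalytic subunits. It had 10.8, 18.1, 14.4 and 13.9 CPM in adult McSC and 52.0, 60.0 and 28.2 CPM in melanoblasts, lower in all adult libraries, at -1.71 ± 0.257 (SE; edgeR adjusted p = 1.64e-05). Uqcrc2, a core protein, had 23.2, 37.7, 34.2 and 39.8 CPM in adult McSC and 103, 106 and 67.4 CPM in melanoblasts, and fell by 1.45. The hinge protein gene Uqcrh fell by 1.03, but was at -0.15 and not called with abundant-gene factors. The uncalled member was Uqcrb, a supporting subunit named after its values were seen, at -1.63 ± 0.628. It had 3.55 to 4.99 CPM in adult McSC and 8.88 to 16.4 CPM in melanoblasts, so these groups did not overlap. Its spread was large in the aged pair, which shares the estimate: aged replicate 2 had 39.2 CPM and aged replicate 1 had 2.06 CPM.

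Complex IV holds subunits that come as alternative isoforms. The common forms fell in adult McSC. Cox6a1 had 18.3, 31.1, 25.5 and 26.1 CPM in adult libraries, against 75.1, 77.7 and 51.1 CPM in melanoblast libraries, with no overlap and a change of -1.43 ± 0.234 (SE; edgeR adjusted p = 4.57e-05). Cox7b, Cox4i1 and Cox8a fell by 1.52, 1.51 and 1.43, and Cox6b1 and Cox7a2 by 1.63 and 0.93. With abundant-gene factors Cox8a was at -0.58 and Cox7a2 at -0.08, both not called. The alternative forms, known from lung, muscle or testis, were low: Cox4i2, Cox7a1, Cox8b and Cox8c stayed at or under 2.02 CPM in all 9 libraries, and Cox6a2 and Cox7b2 at or under 0.413 CPM. Cox6b2, known from testis, had 3.90, 2.99, 3.01 and 3.04 CPM in adult McSC and 5.10, 4.01 and 3.71 CPM in melanoblasts, and was not called (-0.40 ± 0.354, edgeR adjusted p = 0.389). With abundant-gene factors its change turned to 0.47, also uncalled.

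Set against its common partner in the same library, Cox6b2 counts were 26.9% to 57.1% of Cox6b1 counts in adult McSC and 12.5% to 18.9% in melanoblasts, which do not overlap. In aged McSC they were 69.3% and 136%. Cox4i2 counts were 0.771% to 2.49% of Cox4i1 counts in adult McSC and 0.0422% to 0.703% in melanoblasts. Those ratios rest on few Cox4i2 counts, 103 over all libraries. Cox7a1 counts were 3.31% to 10.7% of Cox7a2 counts in adult McSC and 1.25% to 3.95% in melanoblasts, which overlap.

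Complex V showed falls in all 5 subunits of the F1 head and central stalk, all 4 of the peripheral stalk, all 4 small membrane subunits and all 3 c ring genes. Atp5b had 656, 951, 836 and 795 CPM in adult McSC, against 2811, 2934 and 1627 CPM in melanoblasts, with no overlap, at -1.60 ± 0.249 (SE; edgeR adjusted p = 2.46e-05). Atp5mpl, a small membrane subunit, had 4.83, 7.27, 6.48 and 10.1 CPM in adult McSC and 37.0, 41.3 and 23.0 CPM in melanoblasts, at -2.24 ± 0.271 (SE; edgeR adjusted p = 8.41e-07). Both were also called lower with abundant-gene factors, at -0.73 and -1.37. Most other genes of complex V were not called with those factors, among them Atp5h at -0.12, Atp5j at -0.22 and Atp5l at -0.02.

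The c subunit has 3 genes whose mature protein is the same and whose import sequences differ. Atp5g3 had 32.2, 40.2, 36.9 and 37.7 CPM in adult McSC, against 116, 141 and 81.0 CPM in melanoblasts, at -1.61 ± 0.219 (SE; edgeR adjusted p = 4.3e-06). Atp5g2 fell by 1.46, but was at -0.61 and not called with abundant-gene factors. Atp5g1 had 18.6, 35.4, 25.7 and 23.0 CPM in adult McSC and 48.2, 52.6 and 31.7 CPM in melanoblasts, which overlap. It fell by 0.78 (edgeR adjusted p = 0.0167), but its change was 0.06 and not called with abundant-gene factors. Within a library, Atp5g3 counts were 113% to 173% of Atp5g1 counts in adult McSC and 240% to 268% in melanoblasts. These ranges do not overlap, so the c ring genes shifted unequally.

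**Figure D3:**
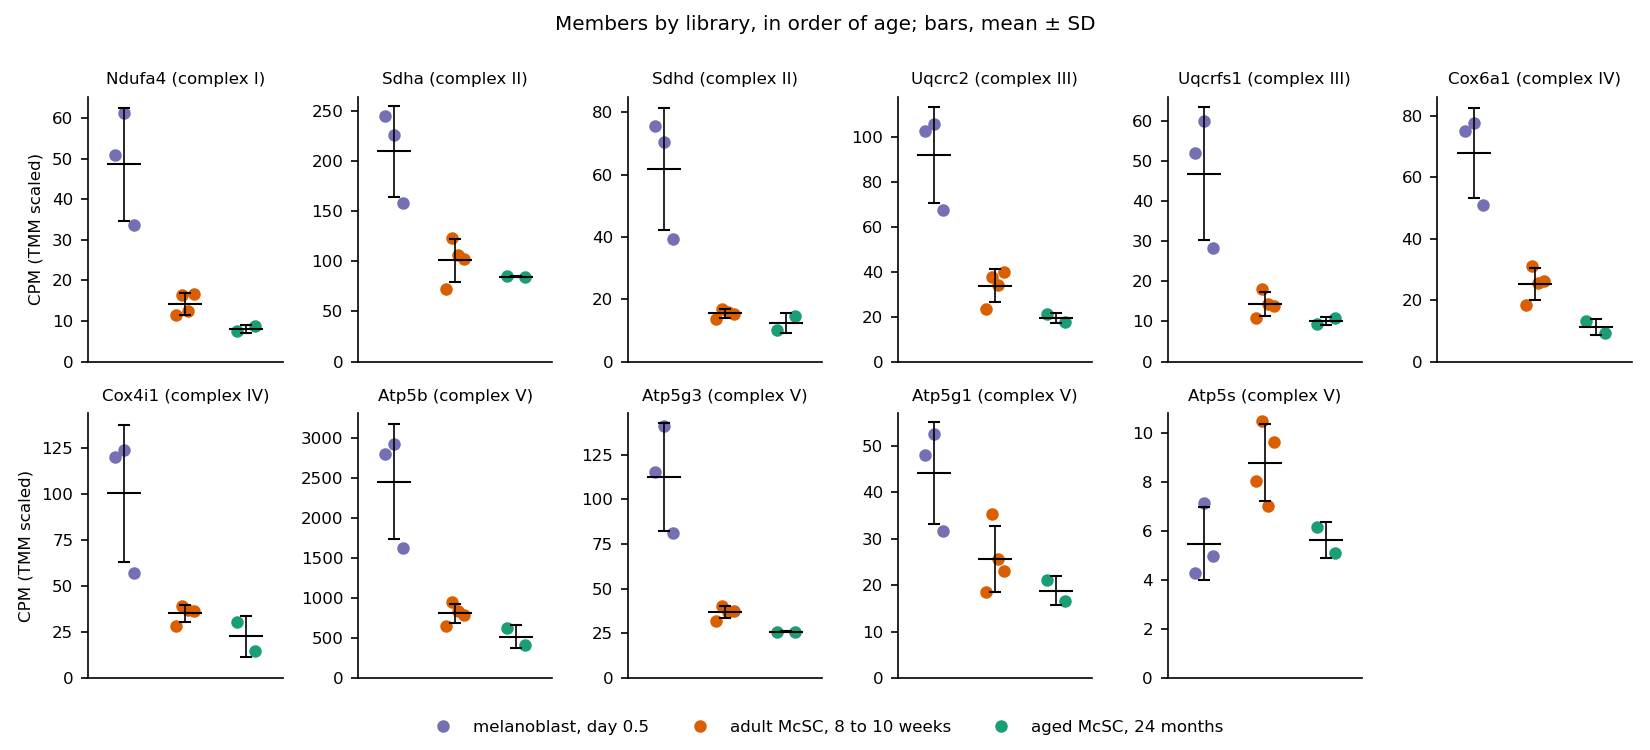
TMM-scaled CPM (y axis) of 11 members, 1 point a library, in order of age: melanoblast, adult McSC and aged McSC; bars give mean ± SD. Adult points lie below melanoblast points for most panels, overlap them for Atp5g1 and lie mostly above them for Atp5s, at 7.02 to 10.5 CPM in adult McSC.

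Members were also compared with each other by fitting the same test with factors taken from the members, which sets the typical member near 0. With these factors 16382 of the 31961 tested genes were called in either direction, so a call is common among all genes. Relative to the typical member, 7 members were higher in adult McSC over melanoblasts: Cox8c, Atp5s, Ndufb2, Ndufb4, Ndufb8, Ndufb10 and Atp5g1. Their relative log2 changes ran from 0.51 ± 0.198 for Atp5g1 (SE; edgeR adjusted p = 0.0432) to 2.76 ± 1.06 for Cox8c (edgeR adjusted p = 0.0427). Cox8c had only 119 counts over all libraries. The Ndufb genes and Atp5s fall outside the rule for named genes and were singled out after their values were seen. Below the typical member were Sdhd at -0.67 ± 0.207 (edgeR adjusted p = 0.0183) and Atp5mpl at -0.94 ± 0.243 (edgeR adjusted p = 0.00789). Of the 7, Ndufb2, Ndufb4, Ndufb8 and Ndufb10 are supernumerary subunits of the membrane arm of complex I.

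Ndufb2 had 13.3, 18.9, 15.5 and 21.5 CPM in adult McSC and 13.1, 14.8 and 18.6 CPM in melanoblasts, and its relative change was 1.32 ± 0.301 (SE; edgeR adjusted p = 0.00402). Its exons overlap Gm42420 on its own strand and Braf and Gm16272 on the other, and how strand was counted is not given in the sources used here, so reads of these genes may be shared. Ndufb8 overlaps Gm20538 on its own strand. Atp5s had 8.03, 10.5, 7.02 and 9.62 CPM in adult McSC and 4.29, 7.14 and 4.97 CPM in melanoblasts, with a relative change of 1.95 ± 0.333 (SE; edgeR adjusted p = 0.000592).

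**Figure D4:**
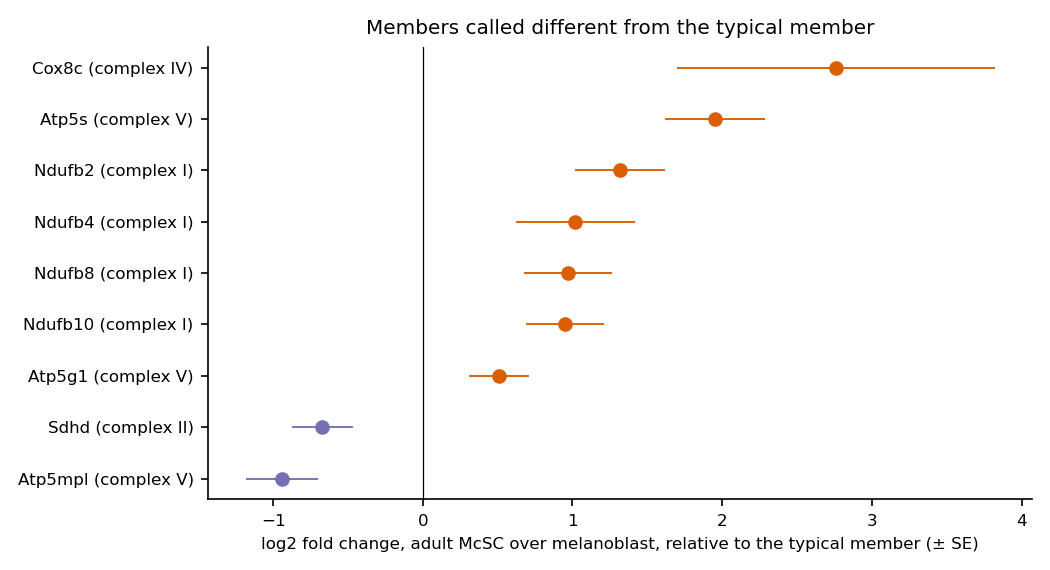
Log2 fold change relative to the typical member (x axis, ± SE), adult McSC over melanoblast, of the 9 genes called different from it. Of these, 7 lie to the right of 0, from 0.51 for Atp5g1 to 2.76 for Cox8c, and Sdhd and Atp5mpl lie to the left.

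In aged over adult McSC no member was called (edgeR quasi-likelihood test, adjusted over all genes tested), while 0.250% of all tested genes were called lower. By sign, 72 of the 80 members were lower in aged McSC, with a median of -0.56. Over all tested genes 45.8% were lower by sign, with a median of 0.08. Among the abundant genes 85.2% were, with a median of -0.34. The members' share by sign is near that of abundant genes, but only 18 members are among those genes, with a median of -0.54. In the band of log2 CPM 2 to 5, which holds 54 members, the members' median was -0.59, against -0.17 for all genes. At an unadjusted p under 0.05, 25 members were lower and 1 was higher, against 6.06% of all tested genes lower. The share of all tested genes higher at that p is not given here. DESeq2 called Cox6a1 and Atp5e lower and no member higher, against 1.58% of its tested genes lower, and limma called 9 lower, Atp5b, Atp5d, Atp5e, Cox6a1, Cox8a, Ndufv3, Uqcr10, Uqcrc2 and Uqcrh, against 2.10% of all tested genes lower. The 2 aged libraries lay below all adult libraries for 36 of the 80 members, against 12.1% of all tested genes. With abundant-gene factors the members' median was -0.23 and 61 were lower by sign.

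Cox6a1 had 13.2 and 9.43 CPM in aged McSC, against 18.3, 31.1, 25.5 and 26.1 CPM in adult McSC, at -1.15 ± 0.284 (SE; edgeR adjusted p = 0.097). Atp5e, the epsilon subunit of the central stalk, had 4.89 and 3.24 CPM in aged McSC and 6.94, 11.5, 9.95 and 9.66 CPM in adult McSC, at -1.21 ± 0.314 (SE; edgeR adjusted p = 0.123). Both aged libraries were below all adult ones for these genes. When melanoblast replicate 3 was left out, both passed the threshold, at edgeR adjusted p = 0.0224 and 0.0413. That library enters this comparison only through the shared fit. Leaving out any other melanoblast library or any adult library gave no member called lower. Complex V was lower by sign for 17 of 17 genes, complex I for 33 of 36, complex III for 7 of 8, complex II for 4 of 4 and complex IV for 11 of 15. Only 2 of the 80 tested members, the isoforms Cox4i2 and Cox6b2, were higher in both aged libraries than in all adult libraries, and neither was called. The matching share of all tested genes is not given here. Cox6b2 had 5.01 and 5.44 CPM in aged McSC and 2.99 to 3.90 CPM in adult McSC (edgeR adjusted p = 0.55). Cox4i2 rests on 29 and 18 counts in aged McSC (edgeR adjusted p = 0.577).

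Uqcrb was the member highest in fold in this comparison (2.29 ± 0.682, edgeR adjusted p = 0.293), and it rests on aged replicate 2 alone, with 677 counts in that library and 51 in the other. It was called higher without the filter on low counts, at 2.20 (edgeR adjusted p = 2.04e-08), and without aged replicate 1, at 3.19 (edgeR adjusted p = 8.01e-06), where the lone aged library is assumed to vary like the others. Its pseudogene copies held 18 and 12 counts in the same libraries.

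**Figure D5:**
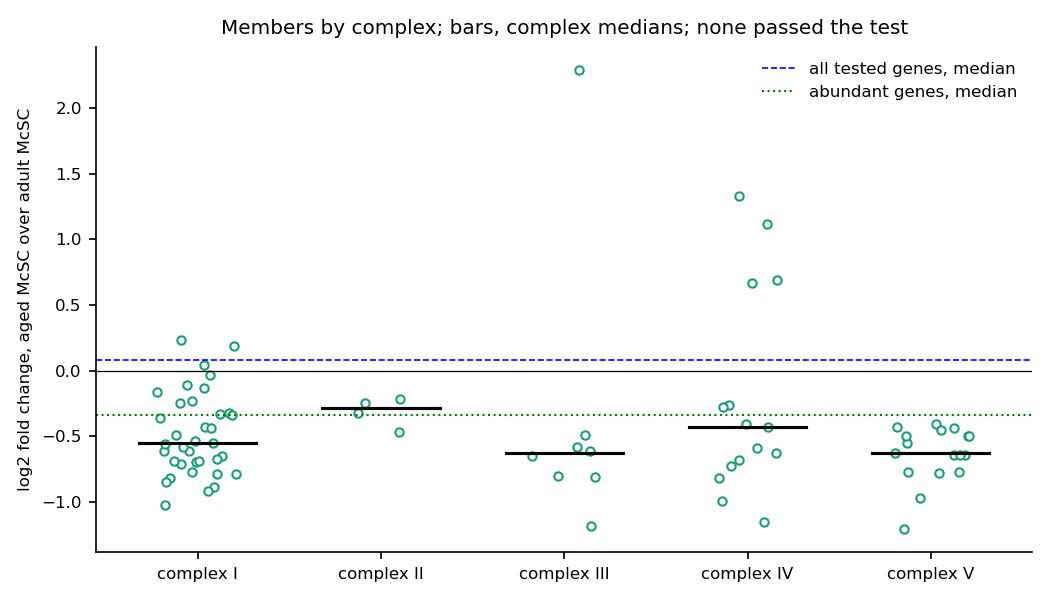
Log2 fold change (y axis) of the 80 tested members in aged over adult McSC, by complex (x axis), with a bar at each complex's median. Most points lie below the all-gene median of 0.08 (dashed), none passed the test, and Uqcrb stands at 2.29.

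Between the ends of the age range, 69 of 80 members fell in aged McSC relative to melanoblasts and none rose, while 20.3% of all tested genes fell and 20.4% rose. The median was -1.68. With abundant-gene factors 35 fell and 5 rose, Ndufb2, Cox4i2, Cox6b2, Cox7a1 and Atp5s, while 5.20% of all tested genes fell and 48.2% rose. This comparison shares its libraries with both others.

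Other genes of the pathway came from 5 lists. Their counts stand against 18.3% of all tested genes that fell and 15.1% that rose, or 5.36% and 34.5% with abundant-gene factors. Of 50 tested assembly factors, 19 fell in adult McSC relative to melanoblasts and 1 rose, with a median of -0.76. Atpaf1, a chaperone of the F1 head, and Coa5, needed for complex IV, fell by 1.73 and 1.69, and Cox19, also an assembly factor of complex IV, rose by 0.76. With abundant-gene factors 6 fell and 8 rose. Of the 6 subunits whose symbols fall outside the patterns 5 fell, among them Cox7a2l at -1.33 and Usmg5 at -1.69, and with abundant-gene factors none was called.

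Of 17 electron carriers and ATP exchange genes 7 fell and 2 rose, or 3 and 5 with abundant-gene factors. The outer membrane channels Vdac1 and Vdac2 fell by 2.03 and 1.54. Ucp2, a carrier of the uncoupling protein family, had 56.4, 76.6, 97.6 and 68.5 CPM in adult McSC, against 28.6, 21.0 and 14.96 CPM in melanoblasts, and rose by 1.80 ± 0.263 (SE; edgeR adjusted p = 1.16e-05). Its relative Ucp3 also rose, by 1.66, at 0.556 to 2.46 CPM in adult McSC and 0.209 to 0.753 CPM in melanoblasts, which overlap. Of 22 regulators of respiration genes 5 fell and 2 rose, or 1 and 7 with abundant-gene factors, and the shares that fell are near those of all genes. Hif1a, the hypoxia factor, and Gabpa, part of GABP, fell by 1.30 and 1.14, and Gabpa was not called with abundant-gene factors (-0.28). Myc rose by 1.01, and Ppargc1a, a coactivator of mitochondrial genes, rose by 0.58. Nrf1 was at -0.04 and not called.

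Of the 13 mitochondrially encoded subunits 11 were tested and 8 fell, 5 with abundant-gene factors, among them mt-Nd4 at -1.68 and mt-Nd1 at -1.74. Of the 13, 6 (mt-Nd3, mt-Nd4l, mt-Co2, mt-Co3, mt-Atp6 and mt-Atp8) were at or under 2.12 CPM in every library, whereas mt-Co1 had 8257 CPM or more, so these 6 carry little information here. In aged over adult McSC none of the 5 lists held a called gene.

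Beside these results, summed melanocyte lineage markers ran from 4480 to 10930 CPM in adult McSC and 14480 to 26270 CPM in melanoblasts, and 8 of 10 fell. Keratinocyte and hair follicle markers ran from 1025 to 2287 CPM in adult McSC and 79.0 to 257 CPM in melanoblasts, and 10 of 10 rose. Immune markers ran from 45.5 to 66.9 CPM in adult McSC and 19.2 to 34.0 CPM in melanoblasts, and 4 of 6 rose. Schwann cell markers rose for 5 of 8 genes in adult McSC over melanoblasts, at 561 to 815 CPM in adult McSC and 207 to 303 CPM in melanoblasts, and fell for 6 of 8 in aged over adult McSC, at 133 to 207 CPM in aged McSC. Fibroblast markers fell for 3 of 6 in adult McSC over melanoblasts, and 1 rose. In aged over adult McSC 3 of 6 fell, at 109 to 217 CPM in aged and 462 to 925 CPM in adult McSC. Mast cell markers, a KIT+ cell type, ran from 3.12 to 7.39 CPM in adult McSC and 16.8 to 28.8 CPM in melanoblasts, and 2 of 5 fell. Endothelial markers ran from 47.0 to 181.5 CPM in adult McSC and 33.3 to 68.9 CPM in melanoblasts, and 2 of 4 rose. The muscle markers, of which Mb stayed at or under 0.526 CPM, summed to 12.8 CPM or less. The part of these cells, and of proliferation, in the members' changes was not tested.

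Some values rest on 1 library. Among the 74 subunits used in most tissues, melanoblast replicate 3 was the lowest of its group for 69 and adult replicate 1 for 59. The matching counts over all tested genes are not given here. The TMM factor of melanoblast replicate 3 was 0.842, against 0.560 and 0.569 in melanoblast replicates 1 and 2. Without melanoblast replicate 3 and adult replicate 2, 66 members fell and 1, Cox8c, rose in adult over melanoblast. Pseudogene copies at 95% identity or more were found for 19 of the 83 genes, and adding their counts left 64 falls. For Atp5l and Ndufa12 such copies held 18% and 14.5% of the joint counts, so their counts are uncertain. Across the 74 subunits, Spearman's rho of the adult over melanoblast change was -0.32 with mean CPM and 0.15 with exon length, as a description of genes that share libraries.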

How the data were processed

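The authors deposited whole-number counts per Ensembl gene for 9 libraries, a count table each. Per the labels' protocols, cDNA was amplified from 20 ng of RNA with a RIN above 8.5, and read pairs of 126 bases were sequenced for each library. STAR 2.5.2, build mm10, SAMtools 1.9, Trimmomatic 0.36, DESeq2 1.22.2 and FastQC 0.11.8 are named in the submitters' processing notes. Which program counted reads, with which strand setting and rule for multiple matches, was not stated in these sources.

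Symbols, exon lengths and overlaps came from a GRCm38 annotation, which matched 49412 of 49671 genes; the other 259 held 0.029% of counts. Counts were fitted in R 4.3.3 with edgeR 4.0.16 (filterByExpr, TMM factors, robust quasi-likelihood F test, group means over all 9 libraries), and p-values were adjusted within each of 3 comparisons over all genes tested, with a threshold of 0.05. SEs were derived from the F statistic. A prior count of 2 applied to log2 CPM values and not to the edgeR fold changes. Alternatives were limma 3.58.1 with voom quality weights, DESeq2 1.42.0, other factors, other filters and left-out libraries. The fit was also tested on simulated data with as many genes raised as lowered, so that test does not bear on the scaling. Replicates of a group differed by more than sampling noise, with a chi-square per degree of freedom of 17.5 or more for every pair.

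The genes, lists and tests were chosen with earlier results of these data known. Genes were named by rule: in each complex those with the smallest p in adult over melanoblast and the most abundant per kb, the 2 with the smallest p in aged over adult, all isoform sets and Sdh genes, and from each list those with the smallest p in each direction. One gene that the rule names is not reported here. Near-identical copies were aligned pseudogenes of 95% identity or more. Upstream sequences are from RefSeq. Counting error sets the limit of 3 counts, and amplified reads are not independent molecules.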

Additional observations from a re-analysis of the deposited data

Results flagged for a closer look

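In the adult McSC group of 4 libraries, 1 library stood apart from the others for 7 of 80 tested members. This was by Dixon's criterion on the gap to the nearest library, which flags about 1 in 20 by chance where genes are independent. Members share libraries, and adult replicate 1 was the lowest adult library for 59 of the 74 subunits used in most tissues. The share flagged over all tested genes is not given here, so the count is no result about the members. Adult replicate 1 was the low library for 5 of them. Atp5d, the delta subunit of the ATP synthase central stalk, had 28.3 CPM there, against 50.3 CPM in the nearest adult library. Atp5o, a peripheral stalk subunit, had 11.4 CPM there and 19.4 CPM in the nearest. Cox7c of complex IV had 14.3 CPM there and 24.1 CPM in the nearest. Ndufs7, a core subunit of complex I, had 6.23 CPM there and 10.3 CPM in the nearest, and Uqcr10 of complex III had 7.56 CPM there and 12.3 CPM in the nearest. For the testis isoform Cox6b2 the same replicate was the high one, with 3.90 CPM against 3.04 CPM in the nearest. Ndufs4 of complex I was high in adult replicate 3, with 15.2 CPM against 13.3 CPM in the nearest.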

How the results depend on the processing

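In both comparisons with melanoblasts the scaling moved the members' counts. With factors from abundant genes, members fell and rose in 25 and 2 cases for adult over melanoblast (median -0.32) and 35 and 5 for aged over melanoblast (median -0.50), and the aged over adult median was -0.23 with 45 genes called, against 97 with TMM. With library totals, added after seeing the data, these were 24 and 2 (median -0.32), 33 and 6 (median -0.49), and -0.23 with 61 genes. The cause was not tested. Over all 80 tested members, 10 turned from lower to higher in adult over melanoblast with abundant-gene factors, 11 with library totals and 37 with factors from the members. Among the genes named by rule, signs turned, as log2 changes, with abundant-gene factors in adult over melanoblast Cox6b2 0.47 and Atp5g1 0.06; in aged over adult Sdha 0.08, Sdhb 0.11, Vdac1 0.03, Ucp2 0.27, Hif1a 0.20, Gabpa 0.02, mt-Nd4 0.27, Kit 0.06 and Mki67 0.14; in aged over melanoblast Cox8b 0.10. With library totals those that turned were in adult over melanoblast Cox6b2 0.45 and Atp5g1 0.08; in aged over adult Sdha 0.08, Sdhb 0.11, Vdac1 0.02, Ucp2 0.28, Hif1a 0.20, Gabpa 0.02, mt-Nd4 0.29, mt-Nd1 0.02, Kit 0.03 and Mki67 0.16; in aged over melanoblast Cox8b 0.09.

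Factors from the members, also added after seeing the data, measure change relative to the typical member by construction. Medians were then 0.12, 0.03 and 0.20 for adult over melanoblast, aged over adult and aged over melanoblast, genes called were 16382, 20 and 22847, and members below and above were 2 and 7 for adult over melanoblast and 4 and 13 for aged over melanoblast. Among the genes named by rule, signs turned in adult over melanoblast for Sdha 0.22, Uqcrh 0.29, Cox6b2 0.89, Cox7a2 0.35, Atp5g1 0.51, Cox7a2l 0.03, Hif1a 0.01 and Gabpa 0.16. They turned in aged over adult Sdhd 0.28, Sdhc 0.12, Sdha 0.35, Uqcrfs1 0.11, Cox7b 0.00, Atp5mpl 0.11, Atp5g3 0.09, Cox8c 0.03, Atp5g1 0.15, Sdhb 0.37, Atpaf1 0.13, Coa5 0.12, Cox19 0.10, Cox7a2l 0.10, Usmg5 0.22, Vdac1 0.32, Vdac2 0.16, Ucp2 0.52, Hif1a 0.49, Gabpa 0.29, mt-Nd4 0.59, mt-Nd1 0.32, Kit 0.30 and Mki67 0.41. They turned in aged over melanoblast Sdha 0.58, Uqcrh 0.06, Cox7a2 0.26, Cox8b 0.75, Atp5g1 0.66, Sdhb 0.17, Cox7a2l 0.13, Hif1a 0.49, Gabpa 0.45, mt-Nd4 0.19 and Kit 0.07.

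A stricter filter (5 CPM in 2 libraries) tests fewer genes and called 6877 genes, with 47 members fallen, 2 risen (Ndufb2 and Atp5s) and a median of -0.84, for adult over melanoblast, and 7611 genes, with 57 members fallen, 1 risen (Ndufb2) and a median of -1.09, for aged over melanoblast. Signs turned in adult over melanoblast Cox6b2 0.10 and in aged over adult Ucp2 0.16, Hif1a 0.09, mt-Nd4 0.18 and Mki67 0.04. In aged over adult, voom called 1520 genes and 9 members lower, DESeq2 314 and 2, no filter 343 and 3 with 1 higher (Uqcrb), a fit of the 2 groups alone 311 and 1 (Cox6a1), and leaving out melanoblast replicate 3 and adult replicate 2 together 278 and 1 (Cox6a1), with Kit at 0.03 and an adult over melanoblast median of -1.46. The third member without a filter was Uqcr10. Members called higher were, in adult over melanoblast, 2 with voom (Cox8c and Atp5s), 1 without the mitochondrially encoded genes (Atp5s) and 1 without that pair of libraries (Cox8c), and in aged over melanoblast 1 (Cox4i2) with voom, DESeq2, no mitochondrially encoded genes, or without the pair. The cause was not tested.

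Leaving out each library in turn gave 55 to 66 falls for adult over melanoblast and 58 to 70 for aged over melanoblast, 0 to 1 risen in each comparison, and 0 to 2 falls for aged over adult. Genes called ran from 13 to 303 for aged over adult (13 without aged replicate 2, 303 without melanoblast replicate 3) and from 7410 to 16292 for aged over melanoblast. Aged over adult changes ran from -1.01 to 0.01 for Cox8c, -0.46 to 0.02 for Kit, -0.40 to 0.23 for Ucp2, -0.46 to 0.32 for mt-Nd4, -0.36 to 0.09 for Hif1a and -0.82 to 0.11 for mt-Nd1, and aged over melanoblast from -0.11 to 0.79 for Cox19. Replicate numbers showed no sign of pairing the samples. Same-numbered adult and melanoblast libraries correlated at -0.08, 0.20 and -0.04 in their deviations, and different-numbered ones at -0.24 to 0.28. With so few libraries a pairing could be missed. With the replicate block, 62 members fell for adult over melanoblast and 69 for aged over melanoblast, and 172 genes but no member were called for aged over adult.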
